A study of Mus musculus with 6 samples.

Results

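The fibrous sheath and the outer dense fibres are the accessory structures that stiffen the mammalian sperm tail around its axoneme, and 10 genes that encode their parts or direct partners were followed here: Akap3, Akap4, Odf1, Odf2, Odf3, Ropn1, Ropn1l, Cabyr, Fscb and Spa17. Every probe set annotated to 1 of these genes alone, by its current or an older symbol, was taken, which gave 22 probe sets of 9 genes out of 45037 probe sets and 18193 genes measured. Fscb has no probe set of its own in the annotation used and has no value. No probe set was left out for a low level. Total RNA of freshly dissected adult mouse testis was measured on 6 Affymetrix arrays. The 3 DREAM transgenic samples came from mice that carry a constitutively active DREAM mutant, and the 3 wild type samples from mice without it. Both groups have the same C57BL/6 x CBA hybrid background. The submitters describe the replicates as independent biological ones. The transgene's promoter, the number of founder lines and any pooling of animals are not given in the sources used here. The gene for DREAM is Kcnip3. Its product senses calcium through EF hands, sits on DNA and represses genes in the calcium-free state, and leaves DNA when calcium binds.

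The fibrous sheath lies under the membrane of the principal piece, the long rear part of the tail. AKAP4 and AKAP3 are its scaffold and hold protein kinase A there by its regulatory subunits. The outer dense fibres run along the axoneme through the midpiece and into the principal piece, with ODF1 and ODF2 among their main proteins. Ropporin (ROPN1), ROPN1L, CABYR and SPA17 carry the short docking domain known from the regulatory subunit of protein kinase A, through which such proteins bind A-kinase anchoring proteins. CABYR also binds calcium and is tyrosine-phosphorylated when sperm become able to fertilise, and FSCB is a CABYR-binding protein of the sheath. Genes of this group are transcribed mainly in spermatids, the last stage of male germ cells. The series title names gene expression and calcium mobilization in sperm cells as the subject, and the comparison asks which of these tail genes, if any, had another level in the transgenic testis.

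Because the transgene's product binds DNA, the sequences around the transcription starts of the members are shown before their levels. RefSeq windows (assembly GRCm38.p6, 250 bases before to 50 after a start) were matched by symbol for 8 of the 10 genes, with 13 windows in all. Odf1 and Cabyr were not matched. Over the 28 pairs of these genes, the longest run of identical bases was 20 bases long and lay in the windows of the scaffold genes Akap3 and Akap4. The next longest was 14 bases and the median 9. Among the 27025 genes with a window, 2 hold the whole run on either strand. In the stretches below, from 100 bases before to 20 after the start, capitals mark that run in Akap3 and Akap4 and the letters TGATGTCA in Fscb.
Akap3, chr6:126852998-126853117, plus strand: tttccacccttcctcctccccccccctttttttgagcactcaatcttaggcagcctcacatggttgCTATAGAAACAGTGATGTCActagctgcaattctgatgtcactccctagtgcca
Akap4, chrX:7067415-7067534, plus strand: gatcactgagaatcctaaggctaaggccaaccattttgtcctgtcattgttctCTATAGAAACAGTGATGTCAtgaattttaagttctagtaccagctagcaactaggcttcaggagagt
Fscb, chr12:64474879-64474998, minus strand: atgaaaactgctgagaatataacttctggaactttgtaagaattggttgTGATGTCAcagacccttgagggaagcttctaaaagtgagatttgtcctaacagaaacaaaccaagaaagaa

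Counted from the annotated start of the window shown, the run begins at position -34 in Akap3 and -47 in Akap4, and it ends in TGATGTCA. Akap4 has another window, with a different annotated start, that holds neither the run nor TGATGTCA. These 8 letters hold GTCA, the core of the element bound by DREAM. The cAMP response element TGACGTCA, to which CREM, an activator of spermatid genes, binds, was searched as well. Akap3 has a further copy of TGATGTCA that overlaps its annotated start, in lower case above. Searched on both strands, TGATGTCA was in the windows of 3 of the 8 member genes, Akap3, Akap4 and Fscb, and in those of 4.18% of all genes. TGACGTCA, which also contains GTCA, was in none of the 8 and in 2.03% of all genes. GTCA alone was in the windows of 8 of the 8, against 87% of all genes. The letters TGATGTCA were chosen for the count after the shared run was seen. Akap3 and Akap4 were thus certain to hold them, and the 3 of 8 cannot be weighed against the share of all genes. These matches describe the sequence, and no binding was measured.

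None of the 22 probe sets passed the test, in which limma compared transgenic with wild-type testis over all 45037 probe sets with Benjamini-Hochberg adjustment and a threshold of 0.05. The calls of this comparison were 0.444% of all probe sets, 77 higher and 123 lower. An unadjusted p under 0.05 was reached by 1 of the 22, a probe set of Akap3, against 6.69% of all probe sets. The differences, given throughout as transgenic minus wild type on the log2 scale, ran from -0.09 to 0.28 with a median of 0.00, 10 of them above 0, 10 below and 2 at 0. Over all probe sets the median was 0.02. The transgenic arrays all read higher than the wild-type arrays with 2 of the 22 probe sets and all lower with 1, whereas 6.35% of all probe sets were so separated upward and 4.95% downward. The number of arrays limits the precision, and the intervals also depend on the variance prior. The 95% intervals of the 22 differences lay between -0.30 and 0.46, that is between 0.814-fold and 1.38-fold in intensity.

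**Figure D1:**
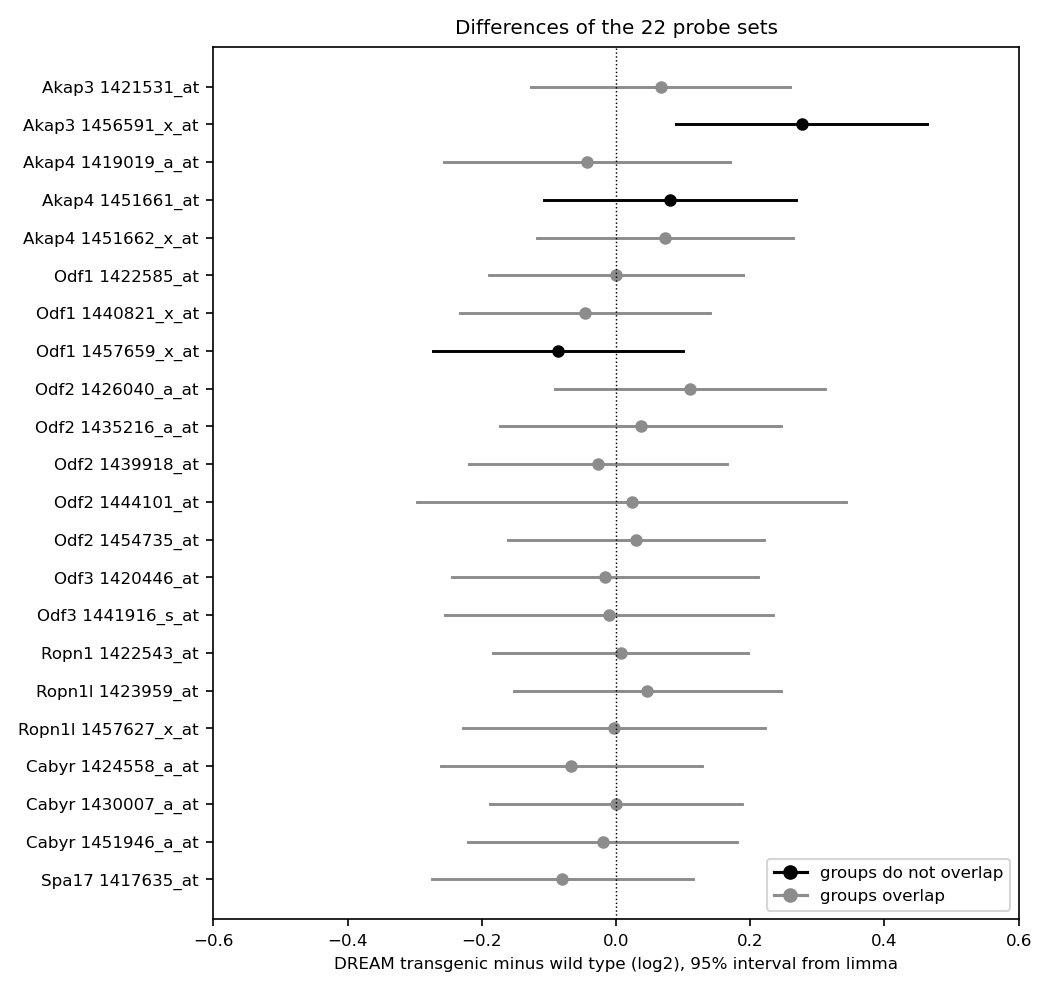
Difference between DREAM transgenic and wild-type testis (horizontal axis, log2) for each of the 22 probe sets (vertical axis), with points for the limma estimate and lines for its 95% interval. Black marks the 3 probe sets whose groups do not overlap, and 1 interval, that of Akap3 1456591_x_at from 0.09 to 0.46, does not hold 0.

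Several facts of the whole table bear on these values. The array medians ran from 5.99 to 6.08, no 2 arrays were identical, and wild type replicate 2 stood apart on the first principal component (42.2, the other arrays between -23.3 and 5.3). The 200 calls became 429 when that array was left out, but 156 without wild type replicate 1 and 70 without wild type replicate 3. Without transgenic replicate 1, 2 or 3 they became 71, 75 and 73. Kcnip3 itself read 7.15, 7.30 and 7.36 in transgenic and 7.33, 7.11 and 7.18 in wild-type testis with its brighter probe set, overlapping groups with a limma adjusted p = 0.974. Whether its probes match the transgene's transcript could not be determined. The defining markers of late spermatids were strong in both groups: the mean of Prm1, Prm2, Tnp1, Tnp2 and Gapdhs ran from 13.78 to 13.85 in transgenic and from 13.79 to 13.82 in wild-type arrays, with 0 of the 5 past the threshold. Gapdhs is also among the sheath partners. The 5 round spermatid markers averaged 10.97 to 11.09 in transgenic and 11.08 to 11.12 in wild-type arrays, with overlap. Their differences were below 0 for 4 genes and above 0 for 1, and 0 passed. The mean of the 2 epididymal markers measured, Lcn5 and Lcn8, ran from 5.13 to 5.22 in transgenic and from 4.95 to 5.24 in wild-type arrays. The 5 spermatocyte markers averaged 9.30 to 9.37 in transgenic and 9.55 to 9.60 in wild-type arrays, and the 4 endothelial markers 5.19 to 5.25 and 4.87 to 4.99, in each case without overlap, although 0 of these 9 genes passed, and their part in the members' values was not tested (limma, lowest adjusted p = 0.237, of Tek, an endothelial receptor, at 4.77 ± 0.23 in transgenic and 4.29 ± 0.03 in wild-type testis). These are bulk samples, in which fewer cells of a type and less RNA per cell cannot be told apart.

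**Figure D2:**
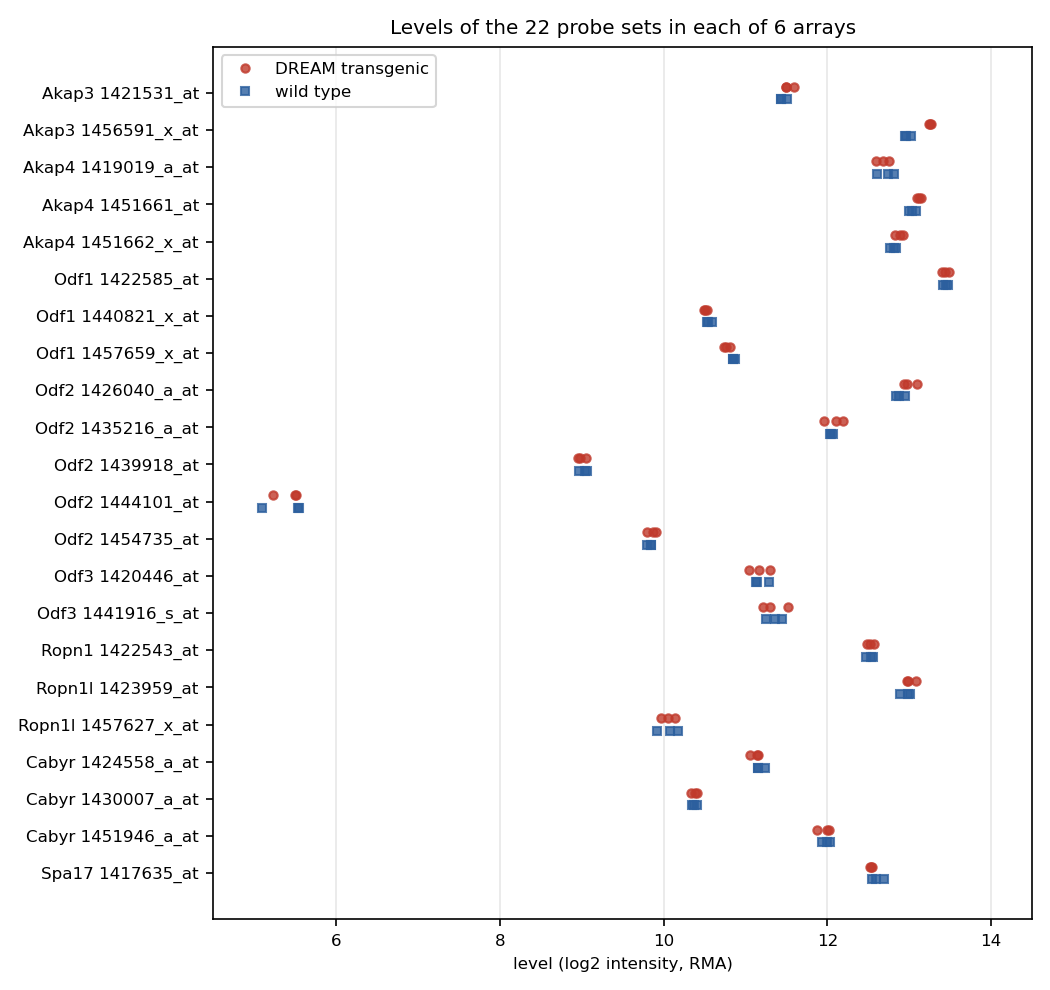
Level (horizontal axis, log2 intensity) of the 22 probe sets (vertical axis) in each array, with red circles for the 3 DREAM transgenic and blue squares for the 3 wild-type arrays. With 1 exception, a dim probe set of Odf2, all lie above 8, and the groups lie close together in each row.

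Akap3, the scaffold that the sheath is assembled on early, had the only member probe set whose interval lay wholly on one side of 0. With probe set 1456591_x_at it read 13.24, 13.27 and 13.25 in transgenic replicates 1 to 3, against 12.96, 13.02 and 12.95 in wild type replicates 1 to 3. The lowest transgenic value was 0.22 above the highest wild-type value, and the difference was 0.28 (SE 0.08, limma unadjusted p = 0.00836, adjusted p = 0.388, 95% interval 0.09 to 0.46, 1.21-fold). The difference of this probe set was between 0.25 and 0.31 under the other settings that test probe sets singly, and the mean of both Akap3 probe sets gave 0.17 (adjusted p = 0.537). After adjustment it passed in 1 setting, with the prior variance of limma fitted as a trend on the level and made robust to outliers, where the SE was 0.04 and the adjusted p = 0.00618. RNA integrity was read from control probe sets as the 3' minus the 5' level. With Gapdh it was 0.21, 0.26 and 0.33 in transgenic and 0.16, 0.06 and 0.11 in wild-type arrays, without overlap. With actin it was 0.53, 0.47 and 0.49 in transgenic and 0.50, 0.41 and 0.50 in wild-type arrays, with overlap. With the Gapdh measure as a covariate, the Akap3 difference was 0.31 (SE 0.16) with an unadjusted p = 0.0891 (limma). The difference thus no longer reached an unadjusted p under 0.05, with a wider SE and not a smaller estimate. Because the Gapdh measure is itself apart between the groups, its part and that of the transgene cannot be told apart in this fit. Names ending in _x_at mark probe sets in which some probes can match other transcripts, and this one has no accession in the annotation used.

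The other Akap3 probe set, 1421531_at, read 11.49, 11.50 and 11.59 in transgenic and 11.51, 11.44 and 11.43 in wild-type testis. Here the groups overlapped, and the difference was 0.07 (SE 0.09, limma adjusted p = 0.967, 95% interval -0.13 to 0.26). Within each array, the 1456591_x_at value exceeded the 1421531_at value by 1.75, 1.77 and 1.66 in transgenic and by 1.45, 1.58 and 1.52 in wild-type testis. This gap was 0.21 wider in transgenic arrays, with no overlap (exact permutation test, two-sided p = 0.1, the smallest that 3 against 3 arrays can give). It is built on the member probe set with the largest difference, from the same arrays, and so adds no separate evidence. Which of the probe sets gives the level of the Akap3 transcript cannot be settled from the values.

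Akap4, the X-linked gene of the main sheath protein, had 3 probe sets with no common direction. With 1451661_at it read 13.12, 13.09 and 13.14 in transgenic and 13.00, 13.08 and 13.03 in wild-type testis. The groups did not overlap, but they came within 0.01 of each other, and the difference of 0.08 did not pass (SE 0.08, limma adjusted p = 0.956, 95% interval -0.11 to 0.27). With 1451662_x_at, designed on the same accession, it read 12.89, 12.83 and 12.93 in transgenic and 12.77, 12.84 and 12.82 in wild-type testis, a difference of 0.07 with overlap. With 1419019_a_at it read 12.75, 12.68 and 12.60 in transgenic and 12.61, 12.81 and 12.74 in wild-type testis, a difference of -0.04. The _a_at ending marks probe sets shared by alternative transcripts of 1 gene. Over the 5 scaffold probe sets the median difference was 0.07, with 4 above 0 and 0 past the threshold.

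**Figure D3:**
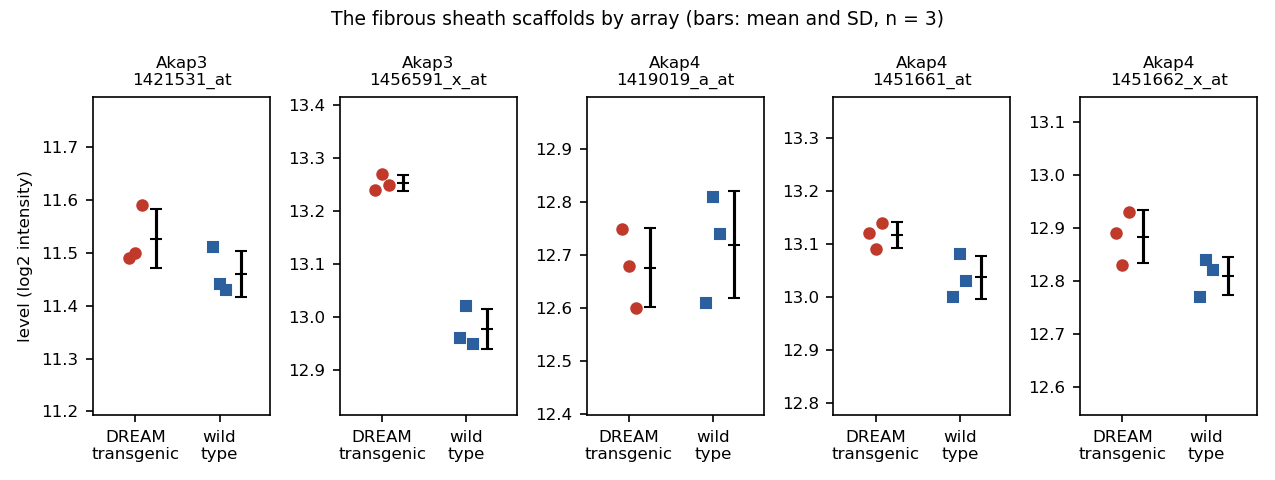
Level (vertical axis, log2 intensity, 0.6 units high in each panel) of the Akap3 and Akap4 probe sets in the DREAM transgenic (left) and wild-type arrays (right), with bars for the mean and SD of 3 arrays. The groups are clearly apart with Akap3 1456591_x_at, just apart with Akap4 1451661_at and overlap in the other panels.

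The outer dense fibre genes were covered by 10 probe sets, of which 0 passed, with differences from -0.09 to 0.11. Odf1, which encodes a cysteine-rich fibre protein related to the small heat shock proteins, read 13.44, 13.40 and 13.49 in transgenic and 13.41, 13.47 and 13.45 in wild-type testis with its brightest probe set. Both groups averaged 13.44, and the 95% interval of the difference was -0.19 to 0.19, or 0.877-fold to 1.14-fold. With 1457659_x_at Odf1 read 10.81, 10.74 and 10.76 in transgenic and 10.85, 10.87 and 10.85 in wild-type testis. This was the only probe set of the 22 with every transgenic array lower, by -0.09 (SE 0.08, limma adjusted p = 0.946). The third Odf1 probe set, 1440821_x_at, read 10.53, 10.49 and 10.50 in transgenic and 10.59, 10.54 and 10.53 in wild-type testis, with the groups meeting at 10.53 and a difference of -0.05.

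Odf2, whose product is found in the sperm tail and, as cenexin, at the centrioles of other cells, had 5 probe sets. Its brightest, 1426040_a_at, read 12.97, 13.09 and 12.94 in transgenic and 12.84, 12.88 and 12.95 in wild-type testis. The groups overlapped, and the difference of 0.11 was the highest among the fibre genes (SE 0.09, limma adjusted p = 0.93, 95% interval -0.09 to 0.31). The others gave 0.04 (1435216_a_at), 0.03 (1454735_at), 0.02 (1444101_at) and -0.03 (1439918_at). Probe set 1444101_at was the dimmest member, at 5.50, 5.23 and 5.51 in transgenic and 5.55, 5.09 and 5.53 in wild-type testis, with wild type replicate 2 the lowest. Without a detection call, it is not shown to lie above background.

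Odf3, also called SHIPPO1, encodes a tail protein of the outer dense fibres. With 1420446_at it read 11.04, 11.30 and 11.17 in transgenic and 11.29, 11.13 and 11.14 in wild-type testis. With 1441916_s_at it read 11.21, 11.52 and 11.30 in transgenic and 11.45, 11.36 and 11.25 in wild-type testis. Both probe sets were highest in transgenic replicate 2 and lowest in transgenic replicate 1, so that the spread within the transgenic group (SD 0.13 and 0.16) was greater than the differences of -0.02 and -0.01 (limma adjusted p = 0.993 and 0.995).

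The genes with the protein kinase A docking domain had 7 probe sets, of which 0 passed, with differences from -0.08 to 0.05. Ropn1, for ropporin, a sheath protein that binds AKAP3, read 12.49, 12.52 and 12.57 in transgenic and 12.56, 12.53 and 12.47 in wild-type testis. Its difference was 0.01 (SE 0.08, limma adjusted p = 0.995, 95% interval -0.18 to 0.20). Ropn1l, its paralogue, read 12.98, 13.08 and 12.97 in transgenic and 12.89, 12.99 and 13.01 in wild-type testis with 1423959_at, a difference of 0.05. With the dimmer 1457627_x_at it read 10.05, 10.14 and 9.97 in transgenic and 9.92, 10.17 and 10.08 in wild-type testis, a difference of -0.003. The groups of Ropn1 and of Ropn1l overlapped with every probe set.

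Cabyr, for the calcium-binding member, had 3 probe sets, all of them shared by alternative transcripts. The brightest, 1451946_a_at, read 11.87, 12.00 and 12.02 in transgenic and 11.93, 12.03 and 11.99 in wild-type testis, a difference of -0.02 (limma adjusted p = 0.99, 95% interval -0.22 to 0.18). The others gave -0.07 (1424558_a_at) and 0.00 (1430007_a_at), again with overlap. Spa17, for a sperm surface and tail protein, read 12.53, 12.54 and 12.52 in transgenic and 12.54, 12.60 and 12.69 in wild-type testis. The groups touched at 12.54, and the difference of -0.08 was the lowest of this set (SE 0.09, limma adjusted p = 0.959, 95% interval -0.27 to 0.11).

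Probe sets of 1 gene did not always take the same side of 0. Of the 7 genes with several probe sets, 3 (Akap4, Odf2 and Ropn1l) had differences of both signs. The differences within a gene spread by 0.01 for Odf3, 0.12 for Akap4 and 0.14 for Odf2, and by 0.21 for Akap3. The 6 probe sets whose names end in _x_at or _s_at had differences from -0.09 to 0.28, against -0.08 to 0.11 for the other 16.

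The members varied little among the 6 arrays. Their values spanned 0.07 to 0.46 from the lowest to the highest array, with a median span of 0.17, against 0.37 over all probe sets. Within groups the median SD of the 22 was 0.05, against 0.13 for all probe sets. For the 4974 probe sets with a mean of 9.01 or more, the level of the dimmest member but 1, it was 0.09. That set was not matched to the members on level, and the brightest probe sets of the 9 member genes had means from 11.35 to 13.44. The highest value in the whole table was 14.24. Whether the upper end of the scale narrows the spread or the differences of bright probe sets was not tested. Among those 4974 probe sets 29 passed, 18 higher and 11 lower. The median deviation of the 22 probe sets from their own mean was between -0.003 and 0.01 in the transgenic and between -0.03 and 0.004 in the wild-type arrays. The median absolute deviation was 0.07 in wild type replicate 1, against 0.03 to 0.05 in the other arrays. Wild type replicates 1, 2 and 3 were the highest array for 4, 4 and 2 of the 22 and the lowest for 6, 1 and 3. Transgenic replicates 1, 2 and 3 were the highest for 2, 5 and 6 and the lowest for 6, 4 and 3. Ties were counted for each array. The standard errors of the members were 0.08 to 0.14, since limma draws small variances toward a value common to all probe sets, and with the prior fitted on level they were 0.04 to 0.15.

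**Figure D4:**
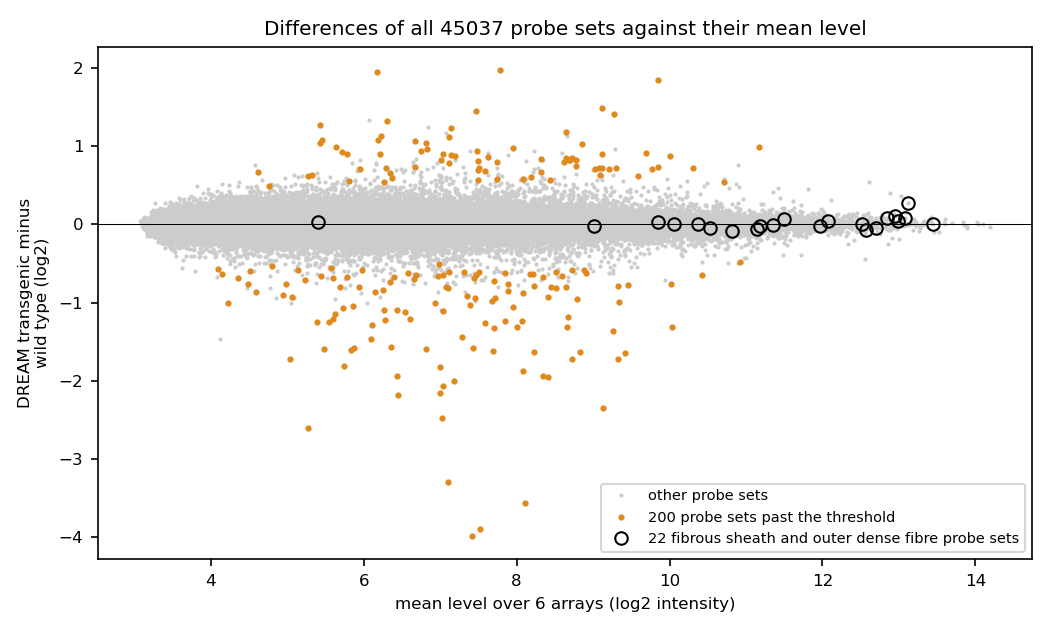
Difference between DREAM transgenic and wild-type testis (vertical axis, log2) against the mean level over 6 arrays (horizontal axis, log2 intensity) for all 45037 probe sets, with the 200 past the threshold in orange. The 22 fibrous sheath and outer dense fibre probe sets (open circles) lie between -0.09 and 0.28, and 21 of them at a level above 8.

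Of 30 further genes for partners of these structures, 27 had a probe set, and 0 passed with the brightest probe set of each (3 at an unadjusted limma p under 0.05, 14 above 0, 12 below, median 0.003). Over all 53 of their probe sets 0 passed as well. Among fibrous sheath partners the lowest p was that of Akap14, a small A-kinase anchoring protein, at 8.42, 8.38 and 8.46 in transgenic and 8.65, 8.67 and 8.79 in wild-type testis. Its groups did not overlap, and the difference was -0.28 (SE 0.09, adjusted p = 0.427, 95% interval -0.48 to -0.09). Among outer dense fibre partners it was that of Klc3, a kinesin light chain that binds ODF1 in the midpiece, at 8.59, 8.75 and 8.45 in transgenic and 9.01, 9.02 and 8.99 in wild-type testis. Every transgenic array was lower, and the difference was -0.41 (SE 0.10, adjusted p = 0.207, 95% interval -0.63 to -0.19).

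The other roles held smaller differences with the brightest probe set of each gene. Septin12, for a septin of the ring between midpiece and principal piece, had the lowest p of the 5 midpiece and annulus genes at a difference of 0.08 (adjusted p = 0.967), and the 5 ran from -0.07 to 0.08. Oaz3, a testis antizyme, had the lowest of the 5 genes listed for head-tail coupling at -0.09 (adjusted p = 0.947), and those ran from -0.09 to 0.04. Over all 14 probe sets of this role the range was -0.26 to 0.25, with 10 below 0, 3 above, 1 at 0 and 0 passing. The 6 probe sets of Oaz3 alone ran from -0.21 to 0.25. Of the protein kinase A subunits that the scaffolds hold, Prkar2a, a regulatory subunit, had the lowest p at 0.13 (adjusted p = 0.923), and the 3 subunits ran from 0.01 to 0.13. Gapdhs, the glycolytic enzyme bound to the sheath, read 13.21, 13.14 and 13.20 in transgenic and 13.14, 13.16 and 13.12 in wild-type testis, a difference of 0.04 with overlap. Gapdhs was named after its value was seen, and so was Eno4, a sperm enolase, at 10.27, 9.93 and 10.21 in transgenic and 9.57, 9.88 and 9.81 in wild-type testis. The Eno4 groups did not overlap, and the difference was 0.38 (SE 0.12, adjusted p = 0.469).

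**Figure D5:**
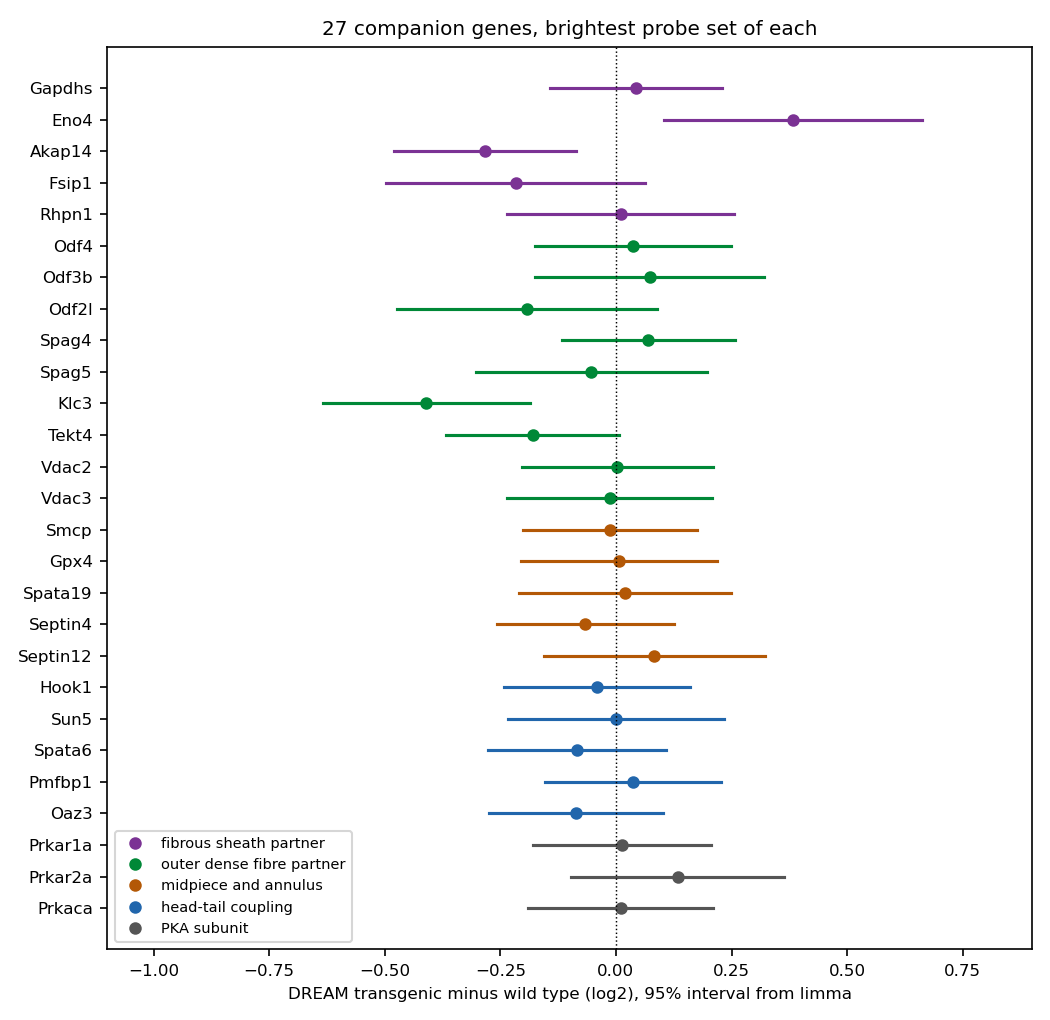
Difference between DREAM transgenic and wild-type testis (horizontal axis, log2) of the 27 partner genes measured (vertical axis, coloured by role), with the brightest probe set of each, points for the limma estimate and lines for its 95% interval. Klc3 at -0.41 and Akap14 at -0.28 lie below 0 and Eno4 at 0.38 above it with their whole intervals, and 0 of the 27 passed after adjustment.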

How the data were processed

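Per the submitters' processing notes, the authors used RMA and the affy package, with versions and genome build not given in the sources used here. The deposited values run on a log2 scale to 2 decimals, read from the values themselves. RMA forces similar distributions on the arrays, so that a change common to all transcripts is lost, and it gives no detection call.

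Of 45101 probe sets, 64 Affymetrix controls were left out and 45037 tested unfiltered. Genes came from the platform annotation, which names 1 gene for 34945 probe sets, several for 932 and none for 9160. Symbols were updated through an NCBI RefSeq table (GRCm38.p6), which matched 34741. The test was limma (version 3.58.1, R 4.3.3: lmFit, eBayes, two-sided, Benjamini-Hochberg over 45037, threshold 0.05). Errors are SDs over 3 arrays. The members, the partner and marker lists and the tests were chosen with earlier results of these data known. Each member was named, and of the partners, in each role, the genes past the threshold or else the 1 of lowest p (Gapdhs and Eno4 fall outside that rule). Partners and markers stand by their brightest probe set. Of 30 partner genes 3 had no probe set annotated to them alone, and of 47 markers 4. The deviations of same-numbered replicates from their group means correlated at -0.32, -0.07 and -0.01. With 3 arrays per group this check cannot exclude a pairing by number, and the number served as a block in an alternative fit only. Filtering, scaling, variance, block, covariate and left-out-array alternatives were run.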

Additional observations from a re-analysis of the deposited data

How the results depend on the processing

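The settings tried were median centring, repeated quantile normalization, a filter that drops the dimmest 40% of probe sets, and eBayes with trend and robust. Others were the replicate number as a block and the RNA integrity measure Gapdh 3' minus 5' as a covariate. Averaging a gene's probe sets, leaving out each array, and an unadjusted p were tried as well. The Gapdh measure was 0.27 ± 0.06 in transgenic and 0.11 ± 0.05 in wild-type arrays (SD, n = 3, exact permutation p = 0.1). The actin measure, not used as a covariate, was 0.50 ± 0.03 in transgenic and 0.47 ± 0.05 in wild-type arrays (exact permutation p = 0.7). The count of member probe sets past the threshold, 0 in the limma fit reported, was 1 with trend and robust eBayes and 1 at an unadjusted p, each time Akap3 1456591_x_at, and 0 under the others. In the trend fit the SE of that probe set was 0.04 in place of 0.08, and both depend on the variance prior of their fit. The SDs of its values were 0.015 in transgenic and 0.038 in wild-type arrays. The 21 other member probe sets had adjusted p values of at least 0.739 in the trend fit. Over the settings the adjusted p of Akap3 1456591_x_at ran from 0.00618 to 0.989.

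The count over all probe sets was 306 with trend and robust eBayes, 117 with the replicate block, 18 with the Gapdh covariate and 3015 at an unadjusted p, and it ran from 70 to 429 when single arrays were left out; the cause was not tested. For the 9 genes, 115 of 126 values were counted as keeping direction and side. A further 2, both of Akap3, passed, with trend and robust eBayes and at an unadjusted p. The 115 do not measure stability, because the filter, trend, block and unadjusted p cannot change the estimate of a probe set. Odf1, at 0.00 in the fit reported, has no direction. All its values were counted as kept, although they ran from -0.0444 to 0.0217. Averaging used all probe sets of a gene, and the other settings its brightest. Among differences near 0 that passed nowhere, Ropn1 turned to -0.0167 with median centring and -0.0746 with the covariate. When single arrays were left out, Ropn1 ran from -0.0183 to 0.0267, Odf3 from -0.0983 to 0.0567 and Cabyr from -0.0483 to 0.0267. The block changed no call of a member. The intervals given hold for plain eBayes with 3 arrays per group, and those of the trend fit were narrower for many members.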
